A study of Mus musculus with 8 samples.

Results

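Mouse embryonic stem cells that were left undeleted were compared across 1 day of culture. The comparison used the 4 ethanol libraries of the 8 in the series, 2 collected after 48 h and 2 after 72 h, chosen by their labels. The cells were derived from tatsf1 flox/flox CreERT2 mice, so Htatsf1 is floxed in every group, and CreERT2 is a Cre recombinase that acts once tamoxifen is bound. Ethanol is the vehicle of tamoxifen and leaves Htatsf1 in place, and the other 4 libraries received tamoxifen for the same times. All cultures grew in conventional ESC medium on MEFs, mouse embryonic fibroblasts that serve as feeders, and the labels mention no removal of feeders before RNA isolation. The labels give neither the sex or number of the lines nor the passage, density, feeding or age of the cultures, so what the added day included besides time is not known. Nor do they say whether the 2 libraries of a time were grown apart, so each p-value sets a change against a spread that may be technical.

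Embryonic stem cells move between related states. In the naive state, which the cytokine LIF sustains through STAT3, factors such as Nanog, Klf4, Esrrb, Tfcp2l1 and Tbx3 support self-renewal. In the formative state, on the way to the epiblast of the implanting embryo, the de novo DNA methyltransferases, Pou3f1, Otx2 and Fgf5 become active, driven in part by FGF and ERK signalling. Growth of these cells rests on MYC proteins and on a large output of ribosomes, and feeder fibroblasts supply LIF, extracellular matrix and growth factors.

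Values are FPKM, fragment counts scaled to transcript length and library size, as the authors deposited them. A change is the difference of the group means of log2(FPKM + 1), a scale on which low genes appear to change less than they did. The term called means a Benjamini-Hochberg adjusted p under 0.05 in limma, over the 11867 genes that reached 1 FPKM in 2 or more of the 8 libraries. The fragments implied by the deposited confidence intervals summed to 12.09 and 14.21 M in the 48 h libraries and to 10.71 and 14.61 M in the 72 h libraries, so no time had the deeper libraries throughout. Correlations of log2(FPKM + 1) within the ethanol groups were 0.997 and 0.995. The 2 times also differed in a number in the deposited names, 4 at 48 h and 5 at 72 h, and in barcode, so time cannot be told apart from whatever those mark. The targeted gene was level: Htatsf1 stood at 22.98 and 21.7 FPKM at 48 h and 22.7 and 22.7 FPKM at 72 h (log2 change 0.03 ± 0.08 SE, adjusted p = 0.8), a value whose sign turned after scaling, and it was not called.

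Markers of embryonic stem cells were abundant at both times, and markers of the feeder cells were present. The summed FPKM of 8 stem cell markers was 3014 to 3098 at 48 h and 4055 to 4193 at 72 h, with Dppa5a as its largest part. Without Dppa5a the other 7 markers summed to 1753 to 1793 FPKM at 48 h and to 1594 to 1622 FPKM at 72 h, lower at 72 h. One of the 8, Sox2, is listed at 0 in all 8 libraries, which can be a failed estimate, while the authors' deposited tables give it means of 5907 (48 h) and 9365 (72 h) scaled counts in ethanol, normalised separately. The summed FPKM of 8 fibroblast markers was 154 to 159 at 48 h and 145 to 153 at 72 h. Summed over 4 markers each, macrophage genes stood at 3.43 to 3.97 and at 3.45 to 3.85 FPKM, and muscle genes at no more than 0.423 FPKM. The endothelial sum, 13.6 to 14.1 and then 17.0 to 17.5 FPKM, came mostly from Pecam1, which stem cells also express, while the defining endothelial gene Cdh5 was at 0.0593 FPKM or less in the 4 ethanol libraries. In a bulk sample, fewer cells of a type and less RNA per cell cannot be told apart.

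Much of the transcriptome moved over the day, and most of it by small steps. In ethanol 4506 genes rose (38.0% of those tested) and 2278 fell (19.2%), so that 57.2% were called in either direction. Changes of at least 2-fold were far fewer, with 309 called genes up (2.60%) and 68 down (0.573%). The median change of all tested genes was 0.11, so the changes below are to be read against 0.11 and not against 0. After median-ratio scaling, which divides each library by its median ratio to the average library and brings that median to about 0, 3343 genes rose (28.2%) and 3371 fell (28.4%), so that rises made up 49.8% of calls instead of 66.4%. Every one of the 3343 was among the 4506 rises, and all 2278 falls were still called as falls. Changes also moved with base composition: the median change went from 0.01 in the fifth of genes with the lowest GC content to 0.26 in the fifth with the highest (Spearman's rho 0.22 across 11245 genes, which are not independent replicates). With GC content corrected, 2982 of 11245 genes rose (26.5%) and 3222 fell (28.7%).

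The largest rises included genes of fatty acid handling and energy metabolism. Fabp3, a carrier of fatty acids within cells (chr4:129986022-129992707 on mm9), stood at 50.1 and 49.6 FPKM at 48 h and 314 and 295 FPKM at 72 h. Both 72 h libraries lay far above both 48 h libraries, a 6.11-fold ratio of means (log2 change 2.59 ± 0.12 SE, adjusted p = 5.35e-07). Got1l1, named for its likeness to a glutamate-oxaloacetate transaminase (chr8:28307931-28313019), had the largest change of all by the rule used here, from 3.16 and 2.15 to 25.99 and 27.5 FPKM (log2 change 2.94 ± 0.14 SE, adjusted p = 5.74e-07). Ldhb, the lactate dehydrogenase subunit that favours the use of lactate, went from 56.3 and 55.6 to 199 and 197 FPKM (log2 change 1.81 ± 0.07 SE, adjusted p = 3.19e-07). In neither gene did the times overlap. Mlycd, the decarboxylase that removes malonyl-CoA, an inhibitor of fatty acid oxidation, rose from 1.90 and 1.63 to 10.2 and 10.6 FPKM (log2 change 2.05). Acot1, a thioesterase that frees fatty acids from coenzyme A, rose from 6.38 and 7.02 to 30.9 and 28.2 FPKM (log2 change 1.99). These 2 enzymes likewise had no overlap. Bmp7, a secreted BMP ligand, was low throughout and rose from 0.430 and 0.368 to 3.76 and 4.13 FPKM (log2 change 1.82 ± 0.12 SE, adjusted p = 2.05e-06). The other 6 of the 12 largest rises were Ly6g6e, a surface protein (log2 change 2.34), Adc, an arginine decarboxylase by name (log2 change 1.91), Fam131c (log2 change 1.79), Hebp1, a heme-binding protein (log2 change 1.76), Ninj1, a membrane protein that acts in plasma membrane rupture (log2 change 1.72), and Macrod1, a hydrolase of ADP-ribose marks (log2 change 1.72).

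The largest falls included Myc, the kinase Pim2 and the WNT effector Lef1. Myc, the transcription factor that drives growth genes (chr15:61816896-61821916 on mm9), stood at 32.2 and 33.5 FPKM at 48 h and 6.92 and 7.75 FPKM at 72 h. That is a 4.48-fold lower mean at 72 h, with the libraries of each time close together (log2 change -2.02 ± 0.09 SE, adjusted p = 5.35e-07). Pim2, a growth-promoting serine/threonine kinase (chrX:7455432-7460558), went from 76.3 and 75.9 to 16.6 and 17.3 FPKM (log2 change -2.11 ± 0.06 SE, adjusted p = 2.34e-08). Lef1, a partner of beta-catenin at WNT target genes (chr3:130813215-130927275), went from 7.12 and 7.29 to 0.981 and 0.706 FPKM, below 1 FPKM in both 72 h libraries (log2 change -2.16 ± 0.11 SE, adjusted p = 7.24e-07). None of these 3 genes had overlapping groups. Gpx1, a glutathione peroxidase, was the most abundant of the 12, and fell from 207 and 226 to 74.1 and 78.4 FPKM (log2 change -1.49). Il1rl1, the receptor of interleukin-33, fell from 18.01 and 18.1 to 4.52 and 4.93 FPKM (log2 change -1.74), and Lgals9, a galectin, fell from 16.1 and 17.1 to 4.71 and 4.52 FPKM (log2 change -1.65). The falls of Exoc3l (log2 change -1.80), Zfp428 (log2 change -1.64), Soga3 (log2 change -1.59), Hopx, a homeodomain-only protein (log2 change -1.70), and Serpinb2, an inhibitor of plasminogen activators (log2 change -1.61), were also among the 12. Snurf had the largest fall, from 58.4 and 53.3 to 19.4 and 6.57 FPKM (log2 change -2.19 ± 0.50 SE, adjusted p = 0.00364), but its 72 h libraries lay far apart and it shares its transcript with Snrpn, so its value is uncertain.

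**Figure D1:**
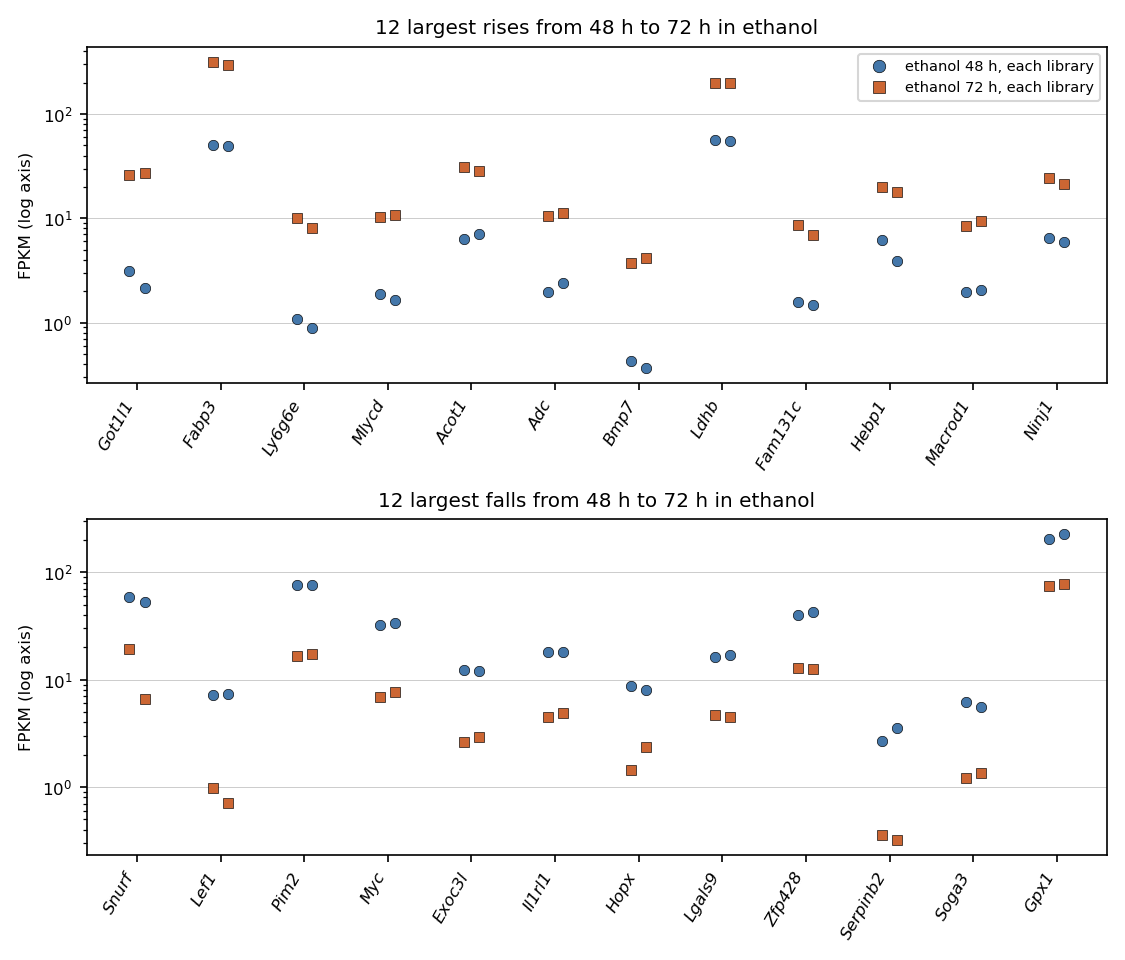
FPKM (log axis) of the 12 largest rises (top) and 12 largest falls (bottom) in each ethanol library, circles for 48 h and squares for 72 h. The 2 libraries of a time sit close together for most genes, Fabp3 moves from about the level of Ldhb at 48 h to above it at 72 h, and the 72 h points of Snurf are spread.

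Among pluripotency genes 14 of 22 naive genes rose and 4 fell, while 9 of 15 core genes fell and 2 rose. Nanog, the homeodomain factor of self-renewal (chr6:122657586-122663796 on mm9), stood at 65.9 and 66.96 FPKM at 48 h and 154 and 139 FPKM at 72 h. Both 72 h libraries were above both 48 h libraries, 2.21-fold by their means (log2 change 1.13 ± 0.07 SE, adjusted p = 1.39e-06). The 14 naive rises were 63.6% of the list, against 38.0% of all genes, and the median change of the list was 0.39. After median-ratio scaling 11 rose and 5 fell. The 4 that fell were Gbx2, a homeobox factor (log2 change -1.02), the orphan nuclear receptor gene Nr0b1 (log2 change -0.43), Tet2, which oxidises methylcytosine (log2 change -0.42), and Stat3 itself (log2 change -0.24). Esrrb, a nuclear receptor of the naive network, rose from 56.5 and 53.7 to 116 and 106 FPKM (log2 change 1.0 ± 0.06 SE, adjusted p = 1.48e-06). Tfcp2l1, a transcription factor downstream of LIF, rose from 15.6 and 14.4 to 37.6 and 32.9 FPKM (log2 change 1.18), and Klf4, another factor that LIF and STAT3 induce, rose from 25.6 and 26.3 to 47.95 and 46.2 FPKM (log2 change 0.84). Tbx3, a T-box factor of the same network, rose from 6.07 and 5.28 to 14.5 and 12.6 FPKM (log2 change 1.12). These 4 genes, like Nanog, had no overlap between the times. Zfp42 (Rex1), a common marker of the naive state, stood at 36.5 and 37.9 FPKM at 48 h and 42.8 and 42.2 FPKM at 72 h, and its call (log2 change 0.19 ± 0.06 SE, adjusted p = 0.0266) was lost when any 1 of the 4 ethanol libraries was left out, as it was after median-ratio scaling.

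Of 15 core pluripotency genes tested, 9 fell (60%, against 19.2% of all genes) and 2 rose, with a median of -0.26 (10 falls and 2 rises after median-ratio scaling). Pou5f1 (Oct4), the central POU factor, stood at 637 and 655 FPKM at 48 h and 506 and 472 FPKM at 72 h (log2 change -0.40 ± 0.06 SE, adjusted p = 0.000169), a decline to 0.757 of its 48 h mean in a gene whose pseudogene copies can share reads. The RNA-binding protein L1td1 fell from 244 and 253 to 119 and 126 FPKM (log2 change -1.02 ± 0.05 SE, adjusted p = 7.24e-07). Dppa2, a chromatin protein of pluripotent cells, fell from 55.9 and 60.8 to 28.6 and 30.7 FPKM (log2 change -0.95). The 2 members that rose were Nanog and Dppa5a, an RNA-binding protein that went from 1345 and 1221 to 2571 and 2461 FPKM (log2 change 0.97) and was the most abundant gene of the list. The plot of pluripotency genes by library shows both directions side by side.

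Genes of the formative and primed epiblast went down. Of 18 tested, 14 fell (77.8%, against 19.2% of all genes) and 0 rose, with a median of -0.59, and the split after median-ratio scaling was also 14 and 0. Dnmt3a, a de novo DNA methyltransferase (chr12:3806980-3914443 on mm9), stood at 70.7 and 70.4 FPKM at 48 h and 25.8 and 25.1 FPKM at 72 h. Its partner Dnmt3b (chr2:153475185-153513466) stood at 239.9 and 236 FPKM at 48 h and 100.3 and 100.0 FPKM at 72 h. Within each time the libraries nearly coincided, and the 72 h means were 2.77-fold and 2.38-fold lower (log2 change -1.44 ± 0.06 SE, adjusted p = 5.35e-07, and log2 change -1.24 ± 0.07 SE, adjusted p = 1.15e-06). Pou3f1 (Oct6), a POU factor of the epiblast, fell from 46.02 and 46.5 to 22.5 and 21.8 FPKM (log2 change -1.03), and Lef1, given above, had the largest fall of the list. In the list of DNA methylation and TET genes, which shares the 2 methyltransferases, 5 of 13 fell (38.5%, against 19.2% of all genes) and 2 rose (15.4%), and the rises were 0 after median-ratio scaling. Without either replicate 1 of 48 h or replicate 2 of 72 h 1 rise was left, and without either of the other 2 ethanol libraries 0.

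**Figure D2:**
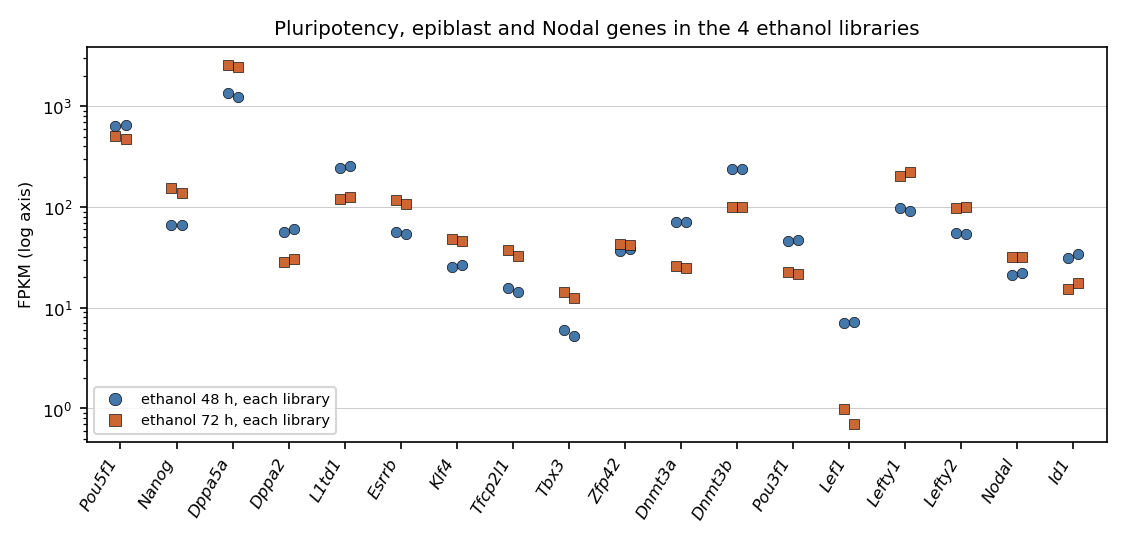
FPKM (log axis) of 18 pluripotency, epiblast, Nodal and BMP pathway genes in the 4 ethanol libraries, circles for 48 h and squares for 72 h. Nanog, Esrrb, Klf4, Tfcp2l1 and Tbx3 lie higher at 72 h, Dnmt3a, Dnmt3b, Pou3f1 and Lef1 lie lower, and Zfp42 hardly differs.

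More genes of Nodal and LIF signalling rose than fell, among them Nodal itself and its feedback inhibitors Lefty1 and Lefty2. Lefty1, a secreted Nodal antagonist and Nodal target, stood at 98.2 and 90.96 FPKM at 48 h and 202 and 223.1 FPKM at 72 h, with no overlap (log2 change 1.16 ± 0.07 SE, adjusted p = 1.36e-06). Lefty2 rose from 54.98 and 53.7 to 98.4 and 100.4 FPKM (log2 change 0.86), the ligand Nodal from 21.1 and 22.05 to 31.7 and 31.5 FPKM (log2 change 0.53) and the proprotein convertase Furin, which processes Nodal, from 9.45 and 8.77 to 16.7 and 15.7 FPKM (log2 change 0.77). In all, 11 of 19 genes of the Nodal pathway rose (57.9%, against 38.0% of all genes) and 3 fell, with a median of 0.34 (10 and 5 after median-ratio scaling). On the LIF and STAT3 list 10 of 17 rose (58.8%, against the same 38.0%) and 3 fell, with a median of 0.45 (10 and 4 after scaling). Its members Pim3, a kinase gene and STAT3 target, rose from 54.1 and 49.4 to 106 and 109 FPKM (log2 change 1.04) and Socs3, the feedback inhibitor of the receptor, from 38.2 and 38.2 to 62.8 and 58.02 FPKM (log2 change 0.65). Socs2, another inhibitor, fell from 48.3 and 54.2 to 34.2 and 36.1 FPKM (log2 change -0.53).

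The BMP, FGF and WNT lists were mixed. Rises and falls made up 23.5% and 29.4% of BMP and ID genes and 30.4% and 34.8% of FGF genes. Over all genes they made up 38.0% and 19.2%. Of 17 BMP and ID genes 4 rose and 5 fell. Bmp7 rose, as given above, whereas Id1, an inhibitor of differentiation that BMP induces, fell from 31.3 and 34.3 to 15.4 and 17.5 FPKM (log2 change -0.95 ± 0.08 SE, adjusted p = 9.02e-06). Of 23 genes of FGF signalling and its ERK feedback 7 rose and 8 fell (6 and 13 after median-ratio scaling), and without replicate 1 of 48 h the falls were 5. The immediate response factor Egr1 fell from 9.25 and 9.38 to 5.18 and 4.83 FPKM (log2 change -0.78), while Spry1, an inhibitor of receptor tyrosine kinase signalling, rose from 6.19 and 6.03 to 10.7 and 12.7 FPKM (log2 change 0.83). Of 24 WNT pathway genes 11 rose (45.8%, against 38.0% of all genes) and 2 fell (8.33%, against 19.2%), or 10 and 4 after scaling. The co-receptor Lrp5 rose from 13.5 and 12.6 to 21.8 and 20.7 FPKM (log2 change 0.67), and Lef1 fell.

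Markers of differentiated lineages were mostly low, and those that rose were led by trophoblast and epithelial genes. Rises made up 63.6% of the trophoblast and 63.6% of the primitive endoderm genes tested, against 38.0% of all genes. After GC correction these shares were 54.5% and 27.3%, against 26.5% of all genes, so primitive endoderm lay near all genes there. Of 11 trophoblast genes tested 7 rose and 2 fell, with a median of 0.62 and the same split after median-ratio scaling, although without replicate 2 of 48 h there was 1 fall. Tfap2c, an AP-2 factor of trophoblast and germ cells that embryonic stem cells also express, rose from 20.53 and 17.8 to 57.3 and 59.2 FPKM (log2 change 1.56 ± 0.07 SE, adjusted p = 5.35e-07), without overlap. The keratins Krt19 (from 5.32 and 6.16 to 20.1 and 18.1 FPKM), Krt18 (from 15.6 and 14.5 to 28.2 and 27.6 FPKM) and Krt7 (from 1.37 and 1.73 to 5.58 and 4.93 FPKM) rose as well. Of 11 primitive endoderm genes 7 rose and 0 fell (5 and 0 after scaling, and 4 rises without replicate 2 of 48 h). Its basement membrane laminins are also made by other cells: Lama1 rose from 3.86 and 3.17 to 7.44 and 7.34 FPKM, Lamb1 from 29.7 and 28.4 to 40.3 and 41.7 FPKM and Lamc1 from 46.96 and 43.7 to 56.1 and 55.4 FPKM, the last not called after GC correction. Gata4, an endoderm factor, rose from 1.02 and 0.769 to 2.00 and 2.17 FPKM (log2 change 0.71).

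Only 5 of 18 primitive streak and mesoderm genes reached the level for testing, and 2 of these rose (40%, against 38.0% of all genes). Gata4 and Eomes rose, and Eomes, a T-box factor (0.822 and 1.04 FPKM at 48 h and 1.59 and 1.66 FPKM at 72 h), was not called without replicate 1 of 48 h or without replicate 2 of 72 h. The call of Eomes was also lost after quantile normalization and after GC correction. Of 9 neuroectoderm genes 3 rose (33.3%, against 38.0% of all genes) and 0 fell, or 1 and 1 after scaling. Msi1, a neural RNA-binding protein, went from 8.30 and 7.36 to 17.05 and 16.2 FPKM (log2 change 1.0). Neurod1, a neuronal factor, rose from 4.10 and 4.14 to 5.22 and 5.46 FPKM (log2 change 0.31) but was not called after scaling. None of 14 genes of the 2-cell-like state reached the level for testing. Among 15 germline genes 7 rose (46.7%, against 38.0% of all genes) and 2 fell (6 and 2 after scaling), with Rhox6, an X-linked homeobox gene, rising from 2.67 and 3.14 to 5.61 and 6.22 FPKM and Ddx4 (Vasa), a germ cell helicase, falling from 11.1 and 10.6 to 6.08 and 6.64 FPKM.

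Regulators of chromatin and imprinting changed in both directions. Rises made up 25.9% of Polycomb and 25% of imprinted genes tested, against 38.0% of all genes. Falls made up 18.5% and 31.2%, against 19.2%. Jarid2, an accessory subunit of Polycomb repressive complex 2, fell from 138 and 137 to 71.2 and 69.9 FPKM (log2 change -0.95 ± 0.06 SE, adjusted p = 2e-06). Ezh1, a methyltransferase of that complex, rose from 6.17 and 5.94 to 11.4 and 11.7 FPKM (log2 change 0.83). Of 27 Polycomb genes 7 rose and 5 fell (5 and 8 after scaling), and 3 falls were left without either replicate 2 of 48 h or replicate 1 of 72 h. Of 16 imprinted genes 4 rose and 5 fell (4 and 9 after scaling), among them the growth inhibitor Cdkn1c, which fell from 32.1 and 29.8 to 17.3 and 18.5 FPKM, and Mest, which fell from 32.6 and 34.5 to 18.8 and 19.2 FPKM. Of 13 retinoic acid genes 7 rose (53.8%, against 38.0% of all genes) and 1 fell (6 and 2 after scaling). The fall was that of Rarg, a retinoic acid receptor, from 74.96 and 80.2 to 31.4 and 29.6 FPKM (log2 change -1.32 ± 0.07 SE, adjusted p = 7.24e-07). Tgm2, a transglutaminase gene induced by retinoic acid, rose from 1.63 and 1.81 to 4.52 and 4.78 FPKM, the binding protein gene Crabp1 from 25.7 and 22.5 to 37.4 and 35.96 FPKM and the receptor gene Rxra from 3.84 and 3.25 to 6.24 and 6.18 FPKM.

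Genes that make ribosomes fell almost as a block, and the genes of the ribosomal proteins themselves did not. Of 76 ribosome biogenesis genes tested 63 fell (82.9%, against 19.2% of all genes) and 2 rose, with a median of -0.35. After median-ratio scaling 74 fell and 1 rose, and without any 1 of the ethanol libraries 54 to 62 fell, with 1 rise left without replicate 2 of 48 h or replicate 1 of 72 h. Imp4, a subunit of the complex that processes the precursor of 18S rRNA, had the largest fall, from 38.03 and 42.98 to 19.6 and 19.7 FPKM (log2 change -1.01 ± 0.07 SE, adjusted p = 3.32e-06). Ncl (nucleolin), an abundant nucleolar protein, went from 553 and 584 to 343 and 364 FPKM (log2 change -0.68 ± 0.06 SE, adjusted p = 7.06e-06). Neither gene had overlapping groups, and most single changes of the list were small. The RNA helicase Ddx21 fell from 153 and 155 to 95.96 and 94.4 FPKM (log2 change -0.69) and Nob1, the endonuclease that finishes 18S rRNA, fell from 75.3 and 73.6 to 47.9 and 47.9 FPKM (log2 change -0.63).

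Of 79 cytoplasmic ribosomal protein genes 38 rose and 2 fell, a share of rises of 48.1% beside 38.0% for all genes (median 0.17 beside 0.11). That share was 30.4% beside 28.2% with median-ratio scaling and 29.1% beside 26.5% with GC correction, near that of all genes. After median-ratio scaling the counts were 24 and 10, without replicate 2 of 48 h 25 rose, and without replicate 1 of 72 h 4 fell. Rps19, of the small subunit, rose from 868 and 753 to 1281 and 1318 FPKM (log2 change 0.68), and Rpl34, of the large subunit, fell from 58.7 and 56.5 to 25.1 and 25.1 FPKM (log2 change -1.17). These families have many processed pseudogenes, which can share reads, so single values are uncertain.

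The MYC network list did not move as a block, with 6 of 20 genes up and 8 down (6 and 9 after scaling). These were 30% and 40% of the list, against 38.0% and 19.2% of all genes. Besides Myc, its paralogue Mycn fell from 129 and 125 to 79.9 and 81.3 FPKM (log2 change -0.65 ± 0.05 SE, adjusted p = 5.76e-06), from a higher level. Of 20 aminoacyl-tRNA synthetases 2 rose (10%) and 4 fell (20%, near the share of all genes), and after median-ratio scaling 1 rose and 12 fell, whereas after quantile normalization 6 rose and 4 fell. Without replicate 1 of 48 h or of 72 h there was 1 rise. Hars, of histidine, fell from 64.4 and 69.5 to 49.9 and 47.2 FPKM and Farsa, of phenylalanine, from 85.96 and 82.98 to 61.2 and 62.8 FPKM.

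**Figure D3:**
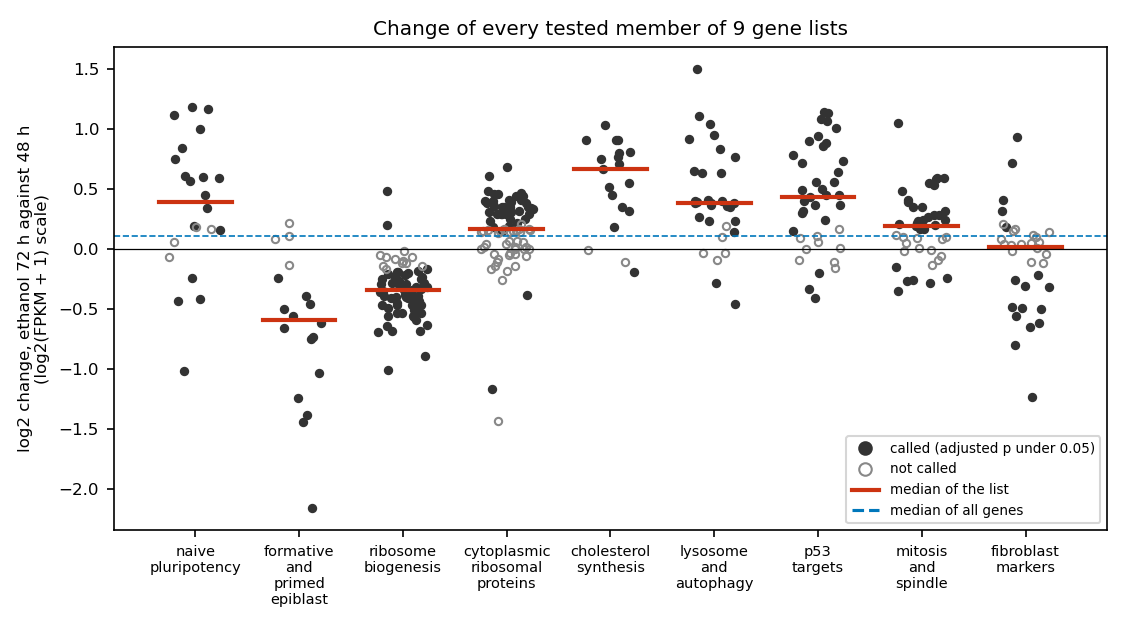
Change in ethanol (72 h against 48 h, log2(FPKM + 1) scale) of each tested member of 9 lists, filled where called, with the list median as a bar, 0 as a solid line and the median of all genes, 0.11, as a dashed line. Ribosome biogenesis genes lie almost all below 0, formative genes mostly below it, cholesterol synthesis and p53 target genes mostly above the dashed line, and fibroblast markers on both sides.

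Sterol synthesis genes rose together with sterol uptake and control genes. Of 19 cholesterol synthesis genes tested 16 rose (84.2%, against 38.0% of all genes) and 1 fell, with a median of 0.67. After median-ratio scaling 14 rose and 2 fell, and the 1 fall was not called without replicate 1 or 2 of 48 h or replicate 1 of 72 h. Fdft1 (squalene synthase) rose from 21.6 and 21.002 to 40.5 and 41.3 FPKM (log2 change 0.91 ± 0.06 SE, adjusted p = 2.59e-06), Mvd, of the mevalonate steps, from 22.3 and 22.05 to 44.8 and 40.4 FPKM, and Dhcr7, of the last steps, from 17.6 and 18.3 to 33.9 and 30.8 FPKM. All 3 genes had both 72 h libraries above both 48 h libraries. Hmgcs1 was not tested.

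On the list of sterol uptake, transport and control 13 of 18 rose and 1 fell (median 0.40; 9 and 1 after scaling), and the 1 fall was lost when any ethanol library was left out. Srebf2, the transcription factor that activates sterol genes, rose from 29.04 and 27.9 to 58.4 and 56.1 FPKM (log2 change 0.98 ± 0.05 SE, adjusted p = 9.99e-07). Its regulator Insig1, itself a sterol-controlled gene, rose from 22.2 and 20.8 to 45.95 and 47.1 FPKM (log2 change 1.08 ± 0.07 SE, adjusted p = 1.43e-06). The phosphatidate phosphatase gene Lpin1 rose from 3.72 and 3.44 to 8.59 and 8.07 FPKM. Fatty acid synthesis genes rose in 12 of 17 cases and fell in 1, with smaller steps (median 0.27, and 7 and 1 after scaling). Rises made up 70.6% of that list and 72.2% of the list of sterol uptake, against 38.0% of all genes. Acss2, which makes acetyl-CoA from acetate, rose from 1.67 and 1.56 to 3.37 and 3.06 FPKM, and the desaturases Scd1 and Fads1 rose from 17.5 and 16.2 to 26.4 and 25.9 FPKM and from 19.3 and 16.7 to 27.95 and 26.4 FPKM. Me1, an enzyme that supplies NADPH, rose from 8.63 and 10.03 to 13.6 and 14.95 FPKM.

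Lists of energy metabolism had counts that turned after median-ratio scaling. Before it, rises made up 45.8% of glycolysis, 40.9% of hypoxia, 34.7% of oxidative phosphorylation and 39.1% of serine and 1-carbon genes. Over all genes the share was 38.0%. Of 24 glycolysis genes 11 rose and 5 fell, but 8 rose and 10 fell after median-ratio scaling and 12 rose and 6 fell after quantile normalization (median 0.03, below the 0.11 of all genes). Apart from Ldhb, the glucose transporter gene Slc2a3 rose from 161 and 154 to 259 and 255 FPKM (log2 change 0.71). Of 22 hypoxia response genes 9 rose and 6 fell, turning to 6 and 7 after scaling, and 3 fell without replicate 1 of 48 h. The histone demethylase gene Kdm3a fell from 22.6 and 23.2 to 12.99 and 14.6 FPKM. Of 75 genes of oxidative phosphorylation 26 rose and 9 fell, turning to 10 and 24 after median-ratio scaling and standing at 30 and 8 after quantile normalization. Rises were 15 without replicate 2 of 48 h and 16 without replicate 1 of 72 h. Ndufa6 rose from 56.4 and 52.1 to 96.3 and 102 FPKM and Ndufb10, of the same complex I, fell from 58.9 and 55.6 to 42.3 and 39.7 FPKM. Of 23 genes of serine and 1-carbon metabolism 9 rose and 6 fell (4 and 10 after scaling, and 5 rises without replicate 2 of 48 h). Phgdh, the first enzyme of serine synthesis, rose from 91.1 and 89.6 to 139 and 141 FPKM (log2 change 0.63), and Mat2a, which makes S-adenosylmethionine, fell from 233 and 253 to 116 and 118 FPKM (log2 change -1.05 ± 0.05 SE, adjusted p = 7.48e-07).

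Lysosome and autophagy genes rose. Of 31 tested 24 rose (77.4%, against 38.0% of all genes) and 2 fell, with a median of 0.38 (20 and 4 after median-ratio scaling, and 1 fall without replicate 2 of either time). Hexa, a subunit of the lysosomal hexosaminidase, stood at 13.1 and 14.3 FPKM at 48 h and 42.1 and 39.2 FPKM at 72 h. That is a 2.97-fold ratio without overlap (log2 change 1.5 ± 0.09 SE, adjusted p = 1.36e-06). Ulk1, the kinase that starts autophagy, rose from 20.50 and 18.5 to 44.1 and 42.2 FPKM (log2 change 1.11 ± 0.06 SE, adjusted p = 1.23e-06), and Sqstm1 (p62), an autophagy receptor, from 67.2 and 65.1 to 119 and 119 FPKM (log2 change 0.83).

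Many lysosomal promoters carry the CLEAR motif, the site of the transcription factors TFEB and TFE3. Its palindromic letters TCACGTGA, read on both strands in RefSeq windows from 250 bases before to 50 bases after a start (GRCm38.p6), were in 7 of the 24 list members that had a window. That was 24.1% of their 29 windows, against 0.974% of all 32851 windows and 1.88% of those of tested genes. These stretches upstream of 4 starts are shown because the members with the letters did not all change, with the match in capitals:
Ctsd (GRCm38.p6 chr7:142387893-142387952, minus strand): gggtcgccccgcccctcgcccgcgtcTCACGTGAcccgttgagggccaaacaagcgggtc
Mcoln1 (GRCm38.p6 chr8:3500447-3500506, plus strand): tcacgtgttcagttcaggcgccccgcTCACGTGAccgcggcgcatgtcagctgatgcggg
Atp6v1a (GRCm38.p6 chr16:44139358-44139417, minus strand): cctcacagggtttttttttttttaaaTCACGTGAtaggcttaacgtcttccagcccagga
Gla (GRCm38.p6 chrX:134601167-134601226, minus strand): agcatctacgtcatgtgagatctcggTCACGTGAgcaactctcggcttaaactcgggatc
The matches begin at -99, -46, -132 and -195 relative to the start. Ctsd, the protease cathepsin D, and Mcoln1, a lysosomal calcium channel, rose (log2 changes 0.63 and 0.39). Atp6v1a, of the proton pump, and Gla, a galactosidase, were not called (-0.03 and 0.19). Of the members with the letters that are not shown, Ctsa and Atp6v0d1 rose (0.23 and 0.38) and Atp6v0e was not called (-0.09). A match is a run of letters and does not show binding.

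Stress response lists held both rises and falls. After median-ratio scaling or GC correction falls outnumbered rises in each of them. Rises and falls made up 29.6% and 33.3% of ATF4 and CHOP genes and 36% and 28% of endoplasmic reticulum chaperone genes. Over all genes they made up 38.0% and 19.2%. Of 27 ATF4 and CHOP genes 8 rose and 9 fell (7 and 10 after median-ratio scaling, 9 and 8 after quantile normalization). Asns (asparagine synthetase), a standard ATF4 target, stood at 101 and 96.5 FPKM at 48 h and 161 and 162 FPKM at 72 h, both 72 h libraries higher (log2 change 0.70 ± 0.05 SE, adjusted p = 3.32e-06). Slc7a3, a transporter of cationic amino acids, fell from 70.6 and 77.5 to 39.2 and 43.3 FPKM (log2 change -0.83 ± 0.07 SE, adjusted p = 6.13e-06). The CARE motif, to which ATF4 binds with C/EBP partners, was searched as TGATGNAA on both strands in the same windows. It was in 8 of 22 members with a window, in 28.6% of their 28 windows, against 3.97% of all windows and 2.17% of those of tested genes. These stretches are shown because members with the letters rose, fell or were not called, with the match in capitals (TTGCATCA is the same motif on the other strand):
Asns (GRCm38.p6 chr6:7693210-7693258, minus strand): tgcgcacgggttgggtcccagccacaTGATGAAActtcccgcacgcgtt
Jdp2 (GRCm38.p6 chr12:85599357-85599415, plus strand): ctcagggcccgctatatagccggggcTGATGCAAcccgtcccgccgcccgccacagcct
Chac1 (GRCm38.p6 chr2:119351023-119351082, plus strand): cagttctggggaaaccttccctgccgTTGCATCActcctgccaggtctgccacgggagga
Herpud1 (GRCm38.p6 chr8:94386291-94386350, plus strand): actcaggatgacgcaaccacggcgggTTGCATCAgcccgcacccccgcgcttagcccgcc
Atf3 (GRCm38.p6 chr1:191183410-191183469, minus strand): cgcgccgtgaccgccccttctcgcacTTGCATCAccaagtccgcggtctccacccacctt
The matches begin at -23, -33, -193, -112 and -110 relative to the start. Asns and Jdp2, a bZIP repressor, rose (0.70 and 1.21). Chac1, which degrades glutathione, and Herpud1, of the degradation machinery of the endoplasmic reticulum, fell (-0.76 and -0.44). Atf3, a bZIP factor, was not called (-0.10). Of the members with the letters that are not shown, Nupr1 rose (0.68), Trib3 fell (-0.5) and Vldlr was not called (0.18).

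Of 25 endoplasmic reticulum chaperone genes 9 rose and 7 fell, turning to 3 and 9 after median-ratio scaling, and 4 rose without replicate 1 of 48 h or of 72 h. Sdf2l1, a chaperone cofactor, rose from 15.6 and 14.4 to 24.8 and 24.9 FPKM, and P4hb, a protein disulfide isomerase, fell from 178 and 188 to 134 and 127 FPKM. Of 22 heat shock genes 6 rose and 10 fell (27.3% and 45.5%, against 38.0% and 19.2% of all genes), or 3 and 14 after scaling. Hsph1, an HSP110 chaperone, fell from 92.9 and 94.04 to 51.3 and 53.2 FPKM (log2 change -0.83 ± 0.05 SE, adjusted p = 1.44e-06), and the small chaperone Hspb8 rose from 10.3 and 9.01 to 22.7 and 20.4 FPKM (log2 change 1.08). Of 21 NRF2 target and metallothionein genes 8 rose (38.1%) and 9 fell (42.9%), or 6 and 11 after scaling. The heme oxygenase gene Hmox1 fell from 98.6 and 101 to 46.1 and 46.8 FPKM (log2 change -1.08 ± 0.05 SE, adjusted p = 5.74e-07), and Mt2, a metal-binding metallothionein, from 673 and 668 to 384 and 392 FPKM (log2 change -0.79).

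Targets of p53 rose. Of 39 tested 27 rose (69.2%, against 38.0% of all genes) and 3 fell, with a median of 0.43 (24 and 5 after median-ratio scaling). Trp53inp1, a p53-induced gene that acts in apoptosis and autophagy, stood at 36.8 and 34.5 FPKM at 48 h and 78.2 and 80.6 FPKM at 72 h, without overlap (log2 change 1.13 ± 0.06 SE, adjusted p = 7.24e-07). Phlda3, an inhibitor of AKT, rose from 29.3 and 32.7 to 63.05 and 63.9 FPKM (log2 change 1.01 ± 0.06 SE, adjusted p = 1.43e-06). Mdm4, a p53 inhibitor rather than an effector, rose from 23.5 and 23.2 to 51.1 and 48.9 FPKM (log2 change 1.07), and Dcxr, a carbonyl reductase, from 6.01 and 6.05 to 13.8 and 13.8 FPKM (log2 change 1.08).

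Cell cycle genes shifted in part, and how many did so rested on single libraries. Of 43 genes of mitosis and the spindle 25 rose (58.1%, against 38.0% of all genes) and 6 fell. After median-ratio scaling 13 rose, 30.2% against 28.2% of all genes, and 9 fell, while 25 rose and 7 fell after quantile normalization and 17 rose and 7 fell after GC correction. Rises were 16 without replicate 1 or without replicate 2 of 48 h and 15 without replicate 2 of 72 h. Pttg1 (securin) rose from 22.95 and 21.5 to 49.2 and 45.04 FPKM (log2 change 1.05 ± 0.08 SE, adjusted p = 4.62e-06), and Ccnb2 (cyclin B2) rose from 56.1 and 53.7 to 80.3 and 86.4 FPKM (log2 change 0.59). Mki67, the Ki-67 antigen of dividing cells, rose from 35.9 and 35.4 to 54.3 and 53.96 FPKM and Prc1, of the central spindle, from 44.8 and 41.6 to 60.6 and 60.4 FPKM. Of 47 genes of DNA replication and S phase 14 rose and 13 fell (29.8% and 27.7%, against 38.0% and 19.2% of all genes), turning to 7 and 21 after scaling. The rises were 9 without replicate 1 of 48 h, and the falls 8 without replicate 2 of either time. Ccne2 (cyclin E2) fell from 10.5 and 10.2 to 4.63 and 4.44 FPKM (log2 change -1.03 ± 0.08 SE, adjusted p = 5.45e-06), and Pold2, a subunit of DNA polymerase delta, rose from 45.1 and 43.2 to 80.5 and 75.7 FPKM (log2 change 0.81). Of 22 immediate early genes 4 rose (18.2%) and 6 fell (27.3%), or 2 and 8 after scaling. Btg2, an antiproliferative gene and also a p53 target, rose from 11.1 and 9.78 to 18.4 and 21.1 FPKM, and Myc fell.

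More epithelial junction genes and YAP targets rose than fell. Of 34 adhesion and junction genes 20 rose (58.8%, against 38.0% of all genes) and 5 fell, with a median of 0.24 (16 and 8 after median-ratio scaling). Cldn4, a tight junction claudin, stood at 47.2 and 44.9 FPKM at 48 h and 138 and 122 FPKM at 72 h (log2 change 1.47 ± 0.07 SE, adjusted p = 5.74e-07). Cdh3 (P-cadherin) rose from 8.91 and 8.55 to 21.4 and 20.3 FPKM (log2 change 1.17 ± 0.07 SE, adjusted p = 1.07e-06), Cldn6 from 59.98 and 61.3 to 111 and 102 FPKM and Cldn3 from 3.54 and 4.11 to 9.45 and 10.6 FPKM. None of these 4 genes had overlapping groups. Of 15 YAP targets 10 rose (66.7%) and 4 fell (median 0.40; 9 and 5 after scaling), among them the kinase gene Nuak2 (from 2.65 and 2.89 to 7.05 and 7.16 FPKM), the phosphatase gene Ptpn14 (from 6.51 and 5.92 to 13.99 and 13.04 FPKM), Amotl2, of the angiomotin family (from 18.6 and 19.3 to 28.8 and 29.9 FPKM), and Tead1, the DNA-binding partner of YAP (from 25.8 and 24.7 to 39.7 and 39.96 FPKM).

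Fibroblast genes, most of which mark the feeders, changed in both directions around a median below that of all genes. Of 34 tested 5 rose and 12 fell (14.7% and 35.3%, against 38.0% and 19.2% of all genes), with a median of 0.02 (3 and 12 after scaling). Col1a1 and Col1a2, the chains of type I collagen, stood at 53.01 and 50.03 FPKM at 48 h and 51.8 and 54.8 FPKM at 72 h and at 29.5 and 28.6 FPKM at 48 h and 29.8 and 31.8 FPKM at 72 h, overlapping in the first and not called in either (0.05 ± 0.05 SE and 0.08 ± 0.07 SE on the log2 scale, both below 0 after median-ratio scaling). After GC correction, however, Col1a1 was called lower at 72 h (log2 change -0.23, adjusted p = 0.00417). Cd44, a hyaluronan receptor that other cells make too, fell from 29.7 and 30.7 to 11.4 and 13.4 FPKM (log2 change -1.23 ± 0.07 SE, adjusted p = 1.43e-06). Fn1 (fibronectin) rose from 116 and 106 to 182 and 182 FPKM (log2 change 0.72), and Mmp2, a gelatinase, from 6.25 and 5.73 to 11.97 and 12.6 FPKM (log2 change 0.93). The smooth muscle actin Acta2, made by activated fibroblasts, stood at 37.4 and 35.4 FPKM at 48 h and 34.7 and 38.002 FPKM at 72 h and was not called. Rises made up 35.7% of the smooth muscle genes tested, near the 38.0% of all genes. Of 14 smooth muscle genes 5 rose and 0 fell (4 and 1 after scaling, and 1 fall without replicate 1 of 72 h), with Des (desmin) rising from 2.99 and 2.80 to 8.33 and 8.75 FPKM and Smtn (smoothelin) from 9.50 and 9.23 to 14.6 and 14.03 FPKM.

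Of 18 matrix proteases and their inhibitors 4 rose and 9 fell (22.2% and 50%, against 38.0% and 19.2% of all genes), or 4 and 11 after scaling. The inhibitor Timp1 fell from 67.1 and 65.2 to 36.2 and 34.6 FPKM (log2 change -0.88) and the collagenase Mmp13 from 2.27 and 2.75 to 0.667 and 0.618 FPKM (log2 change -1.09). On the list of feeder cytokines and IGF-binding proteins 4 of 16 rose (25%) and 7 fell (43.8%). Igfbp4 fell from 9.72 and 10.8 to 5.18 and 4.98 FPKM, and Igfbp2, which embryonic stem cells make as well, rose from 139.7 and 133 to 281 and 264 FPKM.

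Lists for other cell types rested on few tested genes, some of them at low values. Rises and falls made up 9.09% and 54.5% of macrophage genes and 66.7% and 11.1% of endothelial genes. Over all genes they made up 38.0% and 19.2%. Endothelial rises were 33.3% after quantile normalization and after GC correction, against 25.9% and 26.5% of all genes. After median-ratio scaling or quantile normalization 0 macrophage genes rose and 7 fell. Of 11 macrophage genes 1 rose and 6 fell, but without replicate 2 of 48 h the falls were 2 and without replicate 1 of 48 h the rise was lost. Emr1 (F4/80) fell from 1.91 and 1.72 to 0.520 and 0.619 FPKM. Fcgr3 fell from 1.16 and 1.45 to 0.604 and 0.724 FPKM, a call lost without replicate 2 of 48 h or replicate 1 of 72 h. Lyz2 fell from 14.04 and 14.8 to 11.2 and 10.03 FPKM, a call lost without replicate 2 of 48 h or of 72 h, and the rise of Laptm5, from 10.1 and 11.4 to 14.2 and 13.5 FPKM, was not called after scaling, after GC correction or without replicate 1 of 48 h. The defining macrophage genes Ptprc and Csf1r were below 1 FPKM throughout. Of 9 endothelial genes 6 rose and 1 fell (5 and 2 after scaling), the fall not being called without replicate 1 of 48 h or replicate 2 of 72 h. The rises included Egfl7 (from 15.3 and 11.6 to 25.5 and 25.2 FPKM), Eng (from 4.83 and 3.87 to 8.47 and 8.92 FPKM) and Vwf (from 0.453 and 0.466 to 1.25 and 1.29 FPKM). The call of Pecam1 (from 13.3 and 12.9 to 16.2 and 15.5 FPKM) was lost after median-ratio scaling, quantile normalization or GC correction and without replicate 2 of 48 h or replicate 1 of 72 h. Only 3 of 14 skeletal muscle and heart genes were tested. Acta1 rose from 2.18 and 2.23 to 5.90 and 6.25 FPKM, and Myh3, at 0.590 and 0.445 FPKM at 48 h and 1.02 and 1.13 FPKM at 72 h, was not called without replicate 2 of 48 h or of 72 h. Its call was also lost after quantile normalization and after GC correction. Myl4, at 0.392 and 0.805 FPKM at 48 h and 0.627 and 1.28 FPKM at 72 h, overlapped and was not called.

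Of 23 interferon response genes 6 rose and 11 fell (3 and 12 after scaling), with 6 falls without replicate 1 of 48 h and 7 without replicate 1 of 72 h. The 6 rises and 11 falls were 26.1% and 47.8% of the list, against 38.0% and 19.2% of all genes. Bst2 (tetherin) went against the falls, from 72.3 and 65.3 to 157 and 157 FPKM (log2 change 1.18 ± 0.08 SE, adjusted p = 2.36e-06), as did the peptide transporter gene Tap1, from 2.56 and 2.21 to 5.61 and 4.88 FPKM. Of 15 circadian clock genes 4 rose and 1 fell (4 and 2 after scaling, and 0 falls without replicate 2 of 48 h). The 4 rises were 26.7% of the clock list, below the 38.0% of all genes. Csnk1e, a kinase of the clock's PER proteins, rose from 16.8 and 16.9 to 40.6 and 36.4 FPKM (log2 change 1.15 ± 0.07 SE, adjusted p = 1.43e-06), and the repressor gene Bhlhe40 from 6.52 and 6.69 to 13.4 and 14.2 FPKM (log2 change 0.96).

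The same day was also followed in the tamoxifen cultures, which share no library with the ethanol ones. Both changes were called with a spread per gene estimated over all 8 libraries, so the calls of the 2 treatments are not independent. In tamoxifen 4446 genes rose (37.5%) and 2328 fell (19.6%), together 57.1%. Of these, 3443 rose in ethanol too, 76.4% of the ethanol rises and 77.4% of the tamoxifen rises. Likewise 1626 fell in both, 71.4% and 69.8%. Across the 11867 genes the 2 changes correlated with r = 0.82, a description over genes that are not independent, in libraries that share their time with the number in the deposited names. Ribosome biogenesis fell in 62 of 76 genes with tamoxifen, lysosome genes rose in 24 of 31 and p53 targets in 31 of 39.

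**Figure D4:**
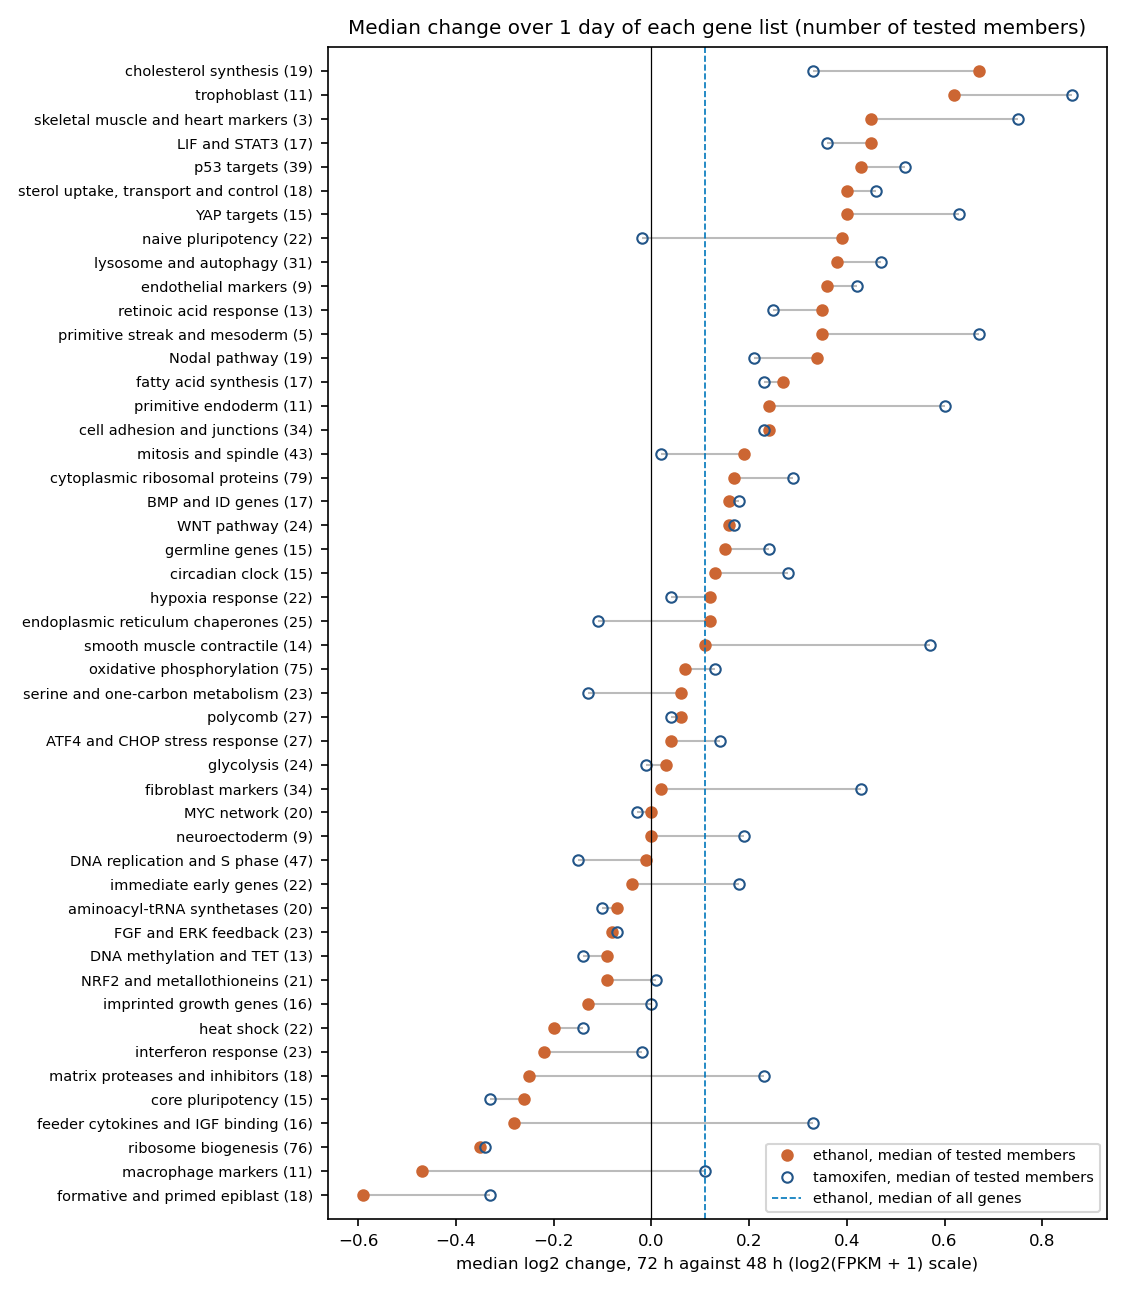
Median change from 48 h to 72 h (log2(FPKM + 1) scale) of the tested members of 48 lists, filled for ethanol and open for tamoxifen, with the number of tested members and the ethanol median of all genes, 0.11, as a dashed line. The points of ribosome biogenesis nearly coincide at -0.35 and -0.34, while those of fibroblast markers, 0.02 and 0.43, and of naive pluripotency, 0.39 and -0.02, lie apart.

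The difference between the time changes was tested directly, and 237 genes were called higher in tamoxifen (2.00%) and 172 lower (1.45%). These counts were smaller whichever of the 8 libraries was left out, 37 higher and 13 lower without ethanol 48 h replicate 1, and at most 160 higher (without tamoxifen 72 h replicate 1) and 100 lower (without tamoxifen 48 h replicate 2). Fibroblast markers were among the first kind. Of 34 fibroblast markers 17 were called higher and 0 lower. In tamoxifen alone 26 of them rose and 2 fell, while 37.5% of all genes rose and 19.6% fell. The 17 became 5 without ethanol 48 h replicate 1 and from 6 to 10 without ethanol 48 h replicate 2, ethanol 72 h replicate 1, tamoxifen 48 h replicate 1 or 2, or tamoxifen 72 h replicate 2. The summed FPKM of the 8 fibroblast markers, 154 to 159 and then 145 to 153 in ethanol, was 239.8 to 242 and then 327 to 359 in tamoxifen, and its part in the other differences was not tested. Acta2, level in ethanol, stood at 53.95 and 50.3 FPKM at 48 h and 104 and 105 FPKM at 72 h in tamoxifen (difference 1.0 ± 0.09 SE, adjusted p = 0.00204).

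Naive genes made up part of the second kind: 0 of 22 were called higher and 8 lower in tamoxifen, where 7 rose and 7 fell. Of all genes 1.45% were called lower, and in tamoxifen 37.5% rose and 19.6% fell. The 8 became 1 without ethanol 48 h replicate 1 and from 3 to 5 without any other 1 of the 8 libraries. Nanog, which stood at 61.8 and 61.3 FPKM at 48 h and 97.4 and 108 FPKM at 72 h in tamoxifen, rose there as well, by less (difference -0.40 ± 0.09 SE, adjusted p = 0.0489), a call lost in 7 of 8 fits that left out 1 library, all but that without tamoxifen 72 h replicate 2 (adjusted p up to 0.155). Klf4 likewise rose by less (difference -0.44 ± 0.08 SE, adjusted p = 0.0211), a call lost in 5 of 8 such fits, without either 48 h library of ethanol or of tamoxifen or without ethanol 72 h replicate 1 (adjusted p up to 0.0903). Esrrb and Tbx3 had changes of 0.86 and 1.14 in tamoxifen beside 1.0 and 1.12 in ethanol and were not called for a difference. Summed fibroblast markers were higher in tamoxifen, as given above, and their part in these values was not tested.

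The largest differences upward were in Ppbp, a platelet-type chemokine (0.568 and 1.32 FPKM at 48 h and 0.107 and 0.783 FPKM at 72 h in ethanol, 0.874 and 0.696 FPKM at 48 h and 2.69 and 3.93 FPKM at 72 h in tamoxifen; difference 1.70 ± 0.34 SE, adjusted p = 0.0306), Actg2, a smooth muscle actin (1.43 ± 0.20 SE, adjusted p = 0.00883), and Il1rl1 (1.4 ± 0.11 SE, adjusted p = 0.00138). Ppbp was low, its ethanol libraries overlapped, and its call was lost in 6 of 8 fits that left out 1 library, all but those without ethanol 72 h replicate 2 or tamoxifen 72 h replicate 1 (adjusted p up to 0.11). The largest differences downward were in Gjb1, a connexin (0.176 and 0.335 FPKM at 48 h and 1.58 and 1.499 FPKM at 72 h in ethanol, 0.863 and 0.865 FPKM at 48 h and 0.784 and 0.385 FPKM at 72 h in tamoxifen; difference -1.26 ± 0.20 SE, adjusted p = 0.0143), Lrrc34, a leucine-rich repeat protein (-1.15 ± 0.18 SE, adjusted p = 0.0143), and Fuom, a fucose mutarotase (-1.10 ± 0.17 SE, adjusted p = 0.0143). All 3 calls were lost without ethanol 48 h replicate 1 (adjusted p up to 0.067 for Gjb1 and 0.0675 for Lrrc34 and Fuom).

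**Figure D5:**
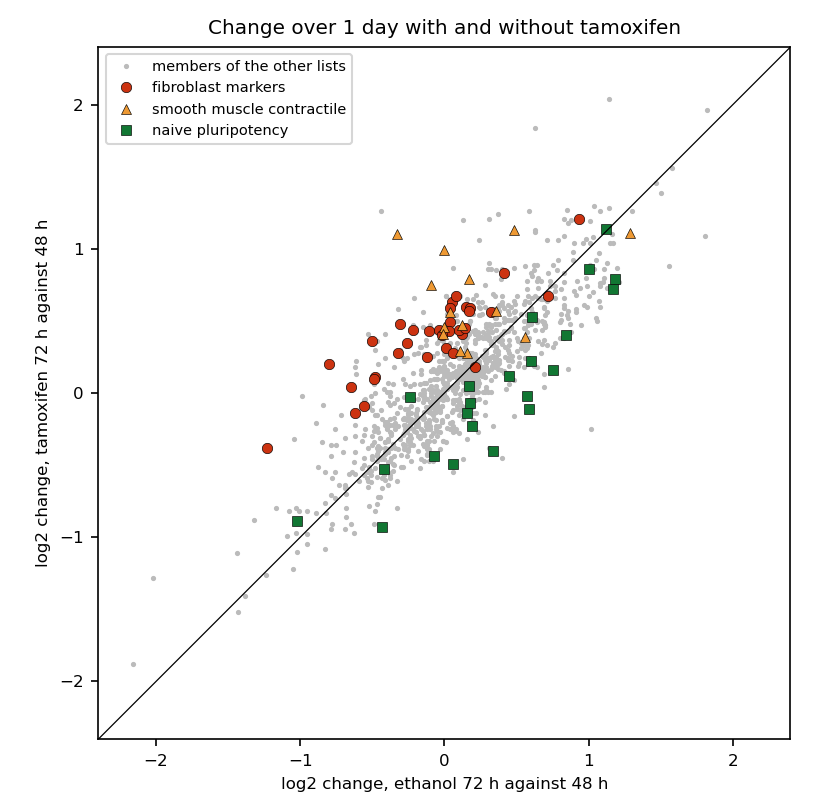
Change from 48 h to 72 h in tamoxifen (vertical) against that in ethanol (horizontal) for the tested members of all lists, each point a gene, with the line of equal change. Most fibroblast and smooth muscle genes lie above the line and most naive pluripotency genes below it.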

How the data were processed

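Polyadenylated RNA of the 4 ethanol libraries, and of the 4 tamoxifen libraries for comparison, was sequenced as 100 bp paired ends, per the labels' protocols. The authors deposited a table of FPKM per gene and library, with confidence bounds, in the layout of Cufflinks. The submitters' processing notes name build mm9 and, without their roles, HTSeq, DESeq, Cufflinks 1.3.0, TopHat 1.4.1 and BWA 0.6.1. The authors also deposited 2 tables that hold a signal, group means of scaled counts, together with a ratio (fold change), its log2 value and p-values, per the file headers. Of these only the Sox2 means were used.

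Of 20388 genes with a usable value, 11867 that reached 1 FPKM in 2 or more of 8 libraries were tested as log2(FPKM + 1), unscaled. One limma fit (limma 3.58.1, R 4.3.3) with 4 group means and 4 residual degrees of freedom, eBayes with a mean trend and two-sided tests gave the ethanol change, the tamoxifen change and their difference. Benjamini-Hochberg adjustment ran over all genes within each contrast. The script was tested on simulated data. Implied fragments were (2 × FPKM / distance to the upper bound) squared. They cover counting error only, and 91.8% to 93.0% of those up to 20 were whole within 0.02. Within ethanol groups the squared difference of the libraries was 2.46 and 3.20 times the counting variance, so neither pair was 1 library deposited again. Positions are from the files, with 1 added to the start.

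Named genes were Htatsf1; the 12 largest called rises and falls without overlap, uncharacterised genes and small RNAs left out; the 2 members of smallest p of each of 49 lists, or 4 where at least 50% of tested members moved in 1 direction; the 3 largest called differences each way; and 6 marker checks. A few genes that this rule names are not reported here. Genes named outside this rule (Sox2, Cdh5, Ptprc, Csf1r, Hmgcs1, Gbx2, Nr0b1, Tet2, Stat3, and those given with the promoter motifs) were chosen after their values were seen. The lists and members were chosen with earlier results of these data known. Other pseudocounts, filters, scalings, a replicate block, a GC correction and leaving out each library were tried.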

Additional observations from a re-analysis of the deposited data

Results flagged for a closer look

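The change from 48 h to 72 h differed between tamoxifen and ethanol cultures, by limma's test of the difference itself (adjusted p under 0.05 over 11867 genes), for 36 of the 157 tested genes that the rule above names. That rule picks genes by their ethanol change, which is part of the difference, and also picks the largest differences. Their share can therefore not be set against the 3.45% called among all tested genes. When each of the 8 libraries was left out in turn, 8 of the 36 stayed called throughout (Il1rl1, Acta2, Actg2, Cd44, Col1a1, Ldhb, Lefty2 and Tfap2c). The other 28 lost the call without at least 1 library, 26 of them without ethanol 48 h replicate 1 and 24 without ethanol 48 h replicate 2. Calls lost in 7 of 8 fits were those of Acot1, Bst2, Emr1, Fam131c, Igfbp2, Nanog, Pttg1, Sqstm1 and Zfp42, and those of Ccnb2 and Krt18 were lost in all 8. The log2 change was higher in tamoxifen for 20 of the 36. The differences, tamoxifen minus ethanol, were Ppbp 1.70, Actg2 1.43, Il1rl1 1.4, Acta2 1.00, Acta1 0.90, Cd44 0.84, Lyz2 0.82 and Emr1 0.76. Smaller ones of the same sign were Myc 0.74, Lgals9 0.69, Igfbp4 0.68, Crabp1 0.67, Gpx1 0.61, Neurod1 0.59 and Col1a2 0.59, followed by Col1a1 0.58, Pim2 0.52, Rarg 0.44, Krt18 0.41 and Sqstm1 0.38. It was lower in tamoxifen for 16, led by Gjb1 -1.26, Lrrc34 -1.15, Fuom -1.10, Ly6g6e -1.07, Ldhb -0.72 and Fam131c -0.70. The others were Lefty2 -0.69, Tfap2c -0.68, Acot1 -0.64, Pttg1 -0.53, Bst2 -0.48, Klf4 -0.44, Zfp42 -0.42, Nanog -0.40, Igfbp2 -0.39 and Ccnb2 -0.35. Fibroblast and smooth muscle genes (Acta2, Actg2, Cd44, Col1a1 and Col1a2) were among those higher in tamoxifen, where summed fibroblast markers went from between 239.8 and 242 FPKM to between 327 and 359 FPKM, while in ethanol they went from between 154 and 159 to between 145 and 153 FPKM. Their part in the other differences was not tested. Ppbp, Gjb1, Actg2 and Emr1 lay below 2 FPKM in the ethanol libraries, where few fragments stand behind a value.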

How the results depend on the processing

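The counts of ethanol rises and falls, 4506 and 2278, kept within 1.5 times under other filters, pseudocounts, scalings and fits, except that 2982 genes rose after GC correction (2866 in tamoxifen). Leaving out 1 library gave 3525 to 4523 rises and 1704 to 2338 falls, and in tamoxifen 3714 to 4393 and 1745 to 2283. Counts at 2-fold moved more. The 309 rises became 815 with a pseudocount of 0.1, 43 with 5, 149 after quantile normalization, 198 after median-ratio scaling and 127 after GC correction (leave-one-out 295 to 357). The 68 falls became 152, 20, 116, 110 and 123 in the same order (68 to 87). For the difference between treatments, 237 higher and 172 lower became 31 and 13 without a filter on low values, where more genes are tested, and 148 and 78 without the mean trend (leave-one-out 37 to 160 and 13 to 100). With the replicate block the ethanol counts were 4430 and 2240, and the difference had 158 and 108. Whether replicate numbers pair the samples is not known, so the counts with the block are given here alone. Same-numbered deviations correlated at 0.145 between the ethanol groups and at -0.276 between the tamoxifen groups. With groups of 2 libraries these values cannot settle it. Signs turned for genes that were not called in the main fit: Col1a1 to -0.08 (median-ratio) and -0.23 (GC), Col1a2 to -0.04 and -0.13, and Htatsf1 to -0.05 (quantile), -0.10 (median-ratio), -0.04 (GC) and -0.02 (without ethanol 48 h replicate 2, the lowest of -0.02 to 0.07 over single libraries left out). After GC correction Col1a1 was called as a fall (limma, adjusted p = 0.00417). Of 150 called named genes 141 stayed called in 1 direction under each setting that tested them; the other 9 were Eomes, Fcgr3, Lamc1, Laptm5, Lyz2, Myh3, Neurod1, Pecam1 and Zfp42. The direction with more calls was the same in 40 of 48 lists after median-ratio scaling and in 42 after quantile normalization. The causes were not tested. GC correction and the 2-fold counts were added after seeing the data. Groups of 2 and 10.71 to 14.61 M implied fragments limit the precision of low genes.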
